A study of Mus musculus with 15 samples.

Results

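The genes that define the epithelial and the mesenchymal state of a cell were examined in the chromatin of newborn mouse lens and of αTN4 cells, which are lens epithelial cells of the mouse transformed by SV40 T antigen. The 10 genes, of 22342 protein-coding genes, were taken from a list: the transcription factors Snai1, Snai2, Zeb1, Zeb2 and Twist1, the cytoskeletal and matrix genes Vim, Acta2 and Fn1, and the cadherins Cdh1 and Cdh2. Each was studied over its gene body and 50 kb to each side, 1706 kb in all, in mm9 coordinates. The list was compiled to ask which chromatin state the transformed line carries, so lens was compared with αTN4 cells and αTN4 cells were compared with and without Pax6 knockdown.

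Epithelial cells hold together through E-cadherin, the product of Cdh1, and through tight and desmosomal junctions. In the epithelial to mesenchymal transition the zinc finger factors of the Snai and Zeb families and the bHLH factor Twist1 repress such genes, cells replace E-cadherin with N-cadherin, the product of Cdh2, and vimentin, smooth muscle actin and fibronectin accumulate. In the lens the transition is known from epithelial cells that turn into myofibroblasts after injury, while normal lens already uses N-cadherin and vimentin in its fibre cells. On chromatin, H3K4me3 marks promoters, H3K4me1 lies mainly over enhancers and at the edges of promoters, and H3K4me2 lies over both.

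αTN4 cells carried a lentiviral control shRNA (control) or a shRNA against Pax6 (Pax6 KD), and both were selected with puromycin for 14 days as pooled populations, so that the transformation, the virus and the selection are shared by both groups. The study's methods name a single Pax6 shRNA (sh2) for ChIP, while the labels do not say which was used. The lens sample was whole lens of newborn CD-1 mice, 1 day of age, which holds epithelium and fibres together. ChIP-seq covered H3K4me1, H3K4me2, H3K4me3, Pol2 and Pax6 in control cells, H3K4me1, H3K4me2 and H3K4me3 in Pax6 KD cells, and H3K4me2 in lens, each as 1 list of regions from 1 library. There are no replicates, no test could be run, and the 95% Wilson intervals given for shares reflect counting error alone. A mark or Pol2 at a promoter is reported as such and is not a measure of expression. The antibody field of the labels exchanges the Pax6 and Pol2 antibodies relative to title and source name, which were followed here, and the list titled Pol2 holds 17204 peaks against 504 in the list titled Pax6.

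The sequence before the start of Cdh1 is shown because the cadherin is the known target of the listed repressors, and that before Snai1 because Snai1 is one of those repressors. Both are the 250 bases before the annotated start on the plus strand of mm9, chr8:109127001-109127250 for Cdh1 and chr2:167363445-167363694 for Snai1, read 5′ to 3′. Capitals mark the E-box words CACCTG and CAGGTG, each the reverse complement of the other.
Cdh1: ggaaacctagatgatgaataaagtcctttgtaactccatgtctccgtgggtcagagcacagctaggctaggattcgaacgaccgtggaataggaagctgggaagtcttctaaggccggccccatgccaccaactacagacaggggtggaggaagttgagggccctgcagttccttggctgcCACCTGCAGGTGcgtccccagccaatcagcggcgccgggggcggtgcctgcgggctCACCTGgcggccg
Snai1: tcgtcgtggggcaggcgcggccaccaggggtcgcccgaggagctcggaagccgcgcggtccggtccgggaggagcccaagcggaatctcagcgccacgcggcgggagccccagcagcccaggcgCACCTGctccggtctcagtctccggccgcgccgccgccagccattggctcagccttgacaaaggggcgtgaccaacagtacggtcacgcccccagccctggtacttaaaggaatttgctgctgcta
The Cdh1 sequence holds 3 such words, which begin 69, 63 and 13 bases before the start, and the first pair abut. Among 22337 genes with a known sequence, 17.0% hold at least 1, 2.10% at least 2 and 0.255% at least 3 of these words in this window. Snai1 holds 1 word, 126 bases before its start, Zeb1 holds 2, at 221 and 63 bases, and the other 7 genes hold none. The word TATAAA, searched on both strands, was found before Twist1 alone of the 10 genes, against 12.3% of all genes. The CArG box is bound by serum response factor in smooth muscle genes. Its exact word CCWWWWWWGG, W being A or T, was found before none of the 10 genes, against 1.34% of all genes. A box with a G or C among the W bases was not searched for. A word in this window is a description of the sequence and not a binding site.

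Lens H3K4me2 was present at the promoter of all 10 genes, a promoter being within 2 kb of a transcript start, and 66.8% of all protein-coding genes had such a peak. In control αTN4 cells H3K4me2 was present at 9 of the 10 promoters against 58.2% of all genes, H3K4me3 at 8 against 49.1%, Pol2 at 7 against 48.0% and H3K4me1 at 5 against 36.0%. In Pax6 KD cells H3K4me2 was present at 9 against 57.1%, H3K4me3 at 8 against 47.8% and H3K4me1 at 3 against 16.8%. No promoter had a Pax6 peak, which 0.255% of all genes had. The gene without αTN4 H3K4me2 was Cdh1, and the genes without H3K4me3 were Cdh1 and Snai1.

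**Figure D1:**
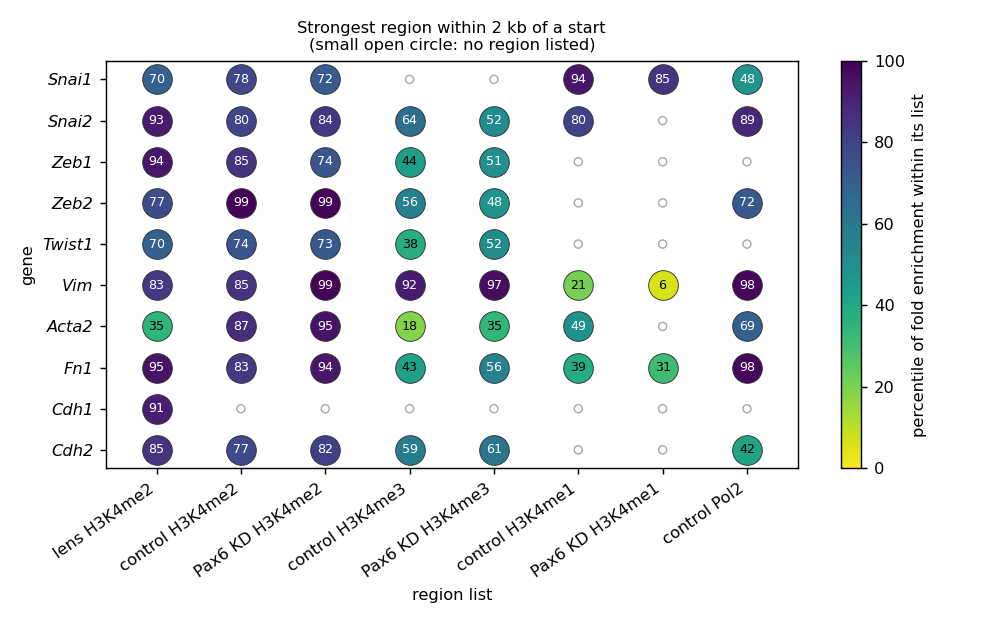
Strongest region within 2 kb of a start for each of the 10 genes (rows) in 8 region lists (columns); colour and number give the percentile of its fold enrichment within its own list, and a small open circle means that no region is listed. Cdh1 has a region in the lens list alone, while Vim and Fn1 have one in every list.

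The combination of H3K4me2 in all 3 conditions, H3K4me3 in both αTN4 groups and Pol2 was found at 6 of the 10 genes, Snai2, Zeb2, Vim, Acta2, Fn1 and Cdh2, and at 45.5% of all genes. Zeb1 and Twist1 carried H3K4me2 and H3K4me3 without Pol2, a combination of 2.67% of all genes. Snai1 carried Pol2 and H3K4me2 without H3K4me3, as 1.51% of all genes did. Cdh1 carried lens H3K4me2 without control H3K4me2, a class of 11.7% of all genes, and no gene of the 10 showed the opposite pattern, which 3.13% of all genes showed. At neither of its 2 starts did Cdh1 have a region of any of the 7 αTN4 lists of marks and Pol2, and the combination of lens H3K4me2 with none of these was that of 10.2% of all genes.

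Cdh1 (ENSMUSG00000000303.6, chr8:109127251-109194146, plus strand) had a lens H3K4me2 peak of 2075 bp from −0.716 to 1.36 kb around its start. Its fold enrichment, the ratio of ChIP signal over the local background given by the peak caller, was 26.1, higher than 91.4% of lens peaks, with a −log10 q of 109. None of the αTN4 lists had a region there. Folds were compared within 1 list only, by the percentile of a region in its list, since the libraries differ in depth and depth is unknown for these peaks.

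αTN4 regions were found inside the Cdh1 gene and in its flanks. Control H3K4me2 peaks lay in the gene from 8.15 to 9.56 kb (fold 6.10), from 15.7 to 17.1 kb (6.76), from 18.9 to 20.7 kb (9.77) and from 36.8 to 38.7 kb (6.90), and each of these overlapped a Pax6 KD peak. Of the other 2 in the gene body, that from 52.5 to 52.8 kb (5.29) overlapped one too, and that from 5.12 to 5.54 kb (3.16) did not. Of these peaks, the lens list had a small peak (fold 4.48) inside that at 15.7 kb and none at the others. A Pol2 peak of fold 7.09 lay at 16.1 to 16.8 kb. The strongest control H3K4me2 peak outside promoters (fold 11.1) lay from 115.1 to 116.1 kb, past the 3′ end, and overlapped peaks of Pax6 KD cells and lens. Upstream, a control H3K4me2 peak from −26.8 to −25.4 kb (fold 10.4, Pax6 KD 10.8) held a Pol2 peak of fold 8.56 and had no lens peak. The H3K4me3 peak in the window, with the strongest Pol2 peak (fold 21.0), lies 79.5 to 80.3 kb from the start, at the promoter of the neighbouring gene Tmco7. The flanks of Cdh1 also hold Cdh3, which encodes P-cadherin, and Gm10073.

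**Figure D2:**
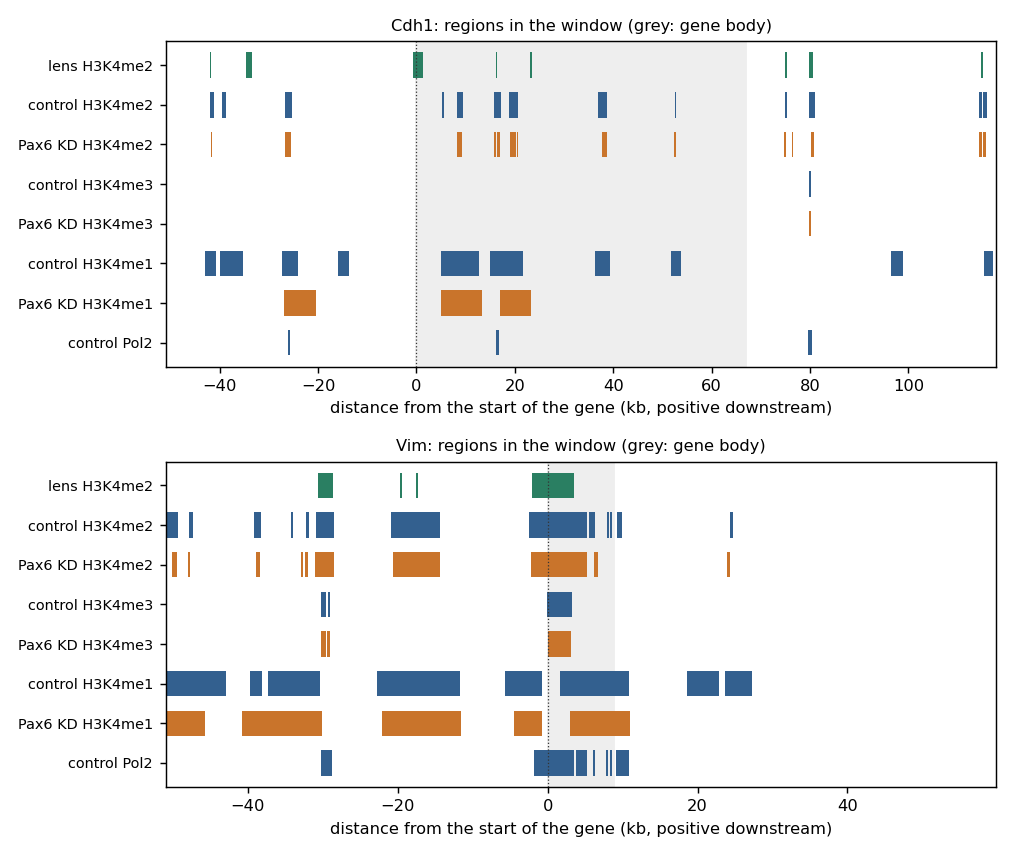
Regions of 8 lists in the windows of Cdh1 (top) and Vim (bottom) by distance from the start of the gene in kb; the gene body is grey and the dotted line is the start, and green stands for lens, blue for control and orange for Pax6 KD. The lens peak over the Cdh1 start has no counterpart in the αTN4 rows, while at Vim all 8 lists have regions at or beside the start.

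Cdh2 (ENSMUSG00000024304.8, chr18:16747386-16967755, minus strand) has 2 annotated starts and carried marks at the 5′ one in all conditions. The strongest promoter H3K4me2 peak had a fold of 22.9 in lens (percentile 85.1), 14.0 in control (77.4) and 16.7 in Pax6 KD (81.6). H3K4me3 had a fold of 20.4 in control (58.5) and 15.5 in Pax6 KD (61.0), and Pol2 one of 8.07 (42.0). H3K4me1 islands, the broad regions called for this mark, were absent from the promoter. Within its gene body, lens and αTN4 cells differed more in H3K4me2. The Cdh2 window held 29 lens H3K4me2 peaks, of which 21 overlapped no control peak, and 11 control peaks, of which 4 overlapped no lens peak. Many of the lens peaks lay from 92.4 to 140.3 kb downstream, where the strongest outside a promoter (fold 8.16) covered 135.0 to 137.0 kb. Those from 137.8 to 140.3 kb lay at the other annotated start of Cdh2, with folds of 5.82, 9.37 and 4.21. They overlapped no H3K4me2 peak of control or Pax6 KD cells. The strongest control peak outside a promoter (fold 9.42) lay from 62.7 to 65.2 kb, had a Pax6 KD peak and had no lens peak.

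The zinc finger repressors of the Snai family differed from each other. Snai1 (ENSMUSG00000042821.7, chr2:167363695-167368314, plus strand) had promoter H3K4me2 of fold 14.5 in lens (percentile 69.8), 14.4 in control (78.4) and 12.8 in Pax6 KD (71.7). It had a Pol2 peak of fold 9.27 (47.8) and no H3K4me3 peak in either αTN4 group. A control H3K4me1 island of 10000 bp ran from −3.09 to 6.91 kb, over the whole gene, with a fold of 6.30 (percentile 94.1) from 290 ChIP reads and 98 input reads, and a Pax6 KD island of fold 3.79 (84.7) from 0.706 to 7.11 kb. The control island thus reached over the start, and that of Pax6 KD cells began after it.

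The Snai1 window was among the most densely marked in αTN4 cells. Control H3K4me2 peaks covered 28.7 kb of it in 21 peaks, more than 98.8% of gene windows by share covered, and Pax6 KD peaks covered 23.5 kb in 20 peaks. Lens peaks covered 8.95 kb in 10 peaks, at the 79.2 percentile. H3K4me1 islands covered 57.3% of the window in control cells and 55.2% in Pax6 KD cells, percentiles 99.4 and 99.7. The strongest H3K4me2 peak outside promoters of any gene lay downstream from 13.1 to 17.0 kb. Its fold was 24.1 in control (percentile 97.9) and 30.2 in Pax6 KD cells (98.95). It overlapped a Pol2 peak of fold 7.09 and a lens peak of 252 bp with a fold of only 3.69 (9.76). A lens peak of fold 13.2 from 21.2 to 22.1 kb had no αTN4 H3K4me2 peak. The neighbours Rnf114 and Spata2 lie in the upstream flank and hold both H3K4me3 peaks of the window and H3K4me2 peaks of folds up to 26.1 in control and 31.9 in Pax6 KD.

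Snai2 (ENSMUSG00000022676.6, chr16:14705945-14709488, plus strand), which encodes Slug, had the full set of promoter marks. H3K4me2 had a fold of 26.8 in lens (percentile 92.7), 14.9 in control (80.0) and 17.7 in Pax6 KD (84.1). H3K4me3 had a fold of 22.3 in control (63.7) and 13.5 in Pax6 KD (51.9), and Pol2 one of 22.5 (88.9). The promoter peak of 4317 bp in control cells was wider than that of 2850 bp in lens. The window was otherwise nearly empty, with 1 more control peak, from 30.3 to 31.1 kb (fold 5.87), which had a Pax6 KD peak and no lens peak. The 1 H3K4me1 island of the control window, upstream of the start (fold 4.79), had no Pax6 KD island.

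Zeb1 and Zeb2, the homeodomain zinc finger repressors, also differed. Zeb1 (ENSMUSG00000024238.5, chr18:5591858-5775465, plus strand) had promoter H3K4me2 of fold 27.6 in lens (percentile 94.2), 17.0 in control (85.5) and 13.6 in Pax6 KD (74.0). H3K4me3 was modest, with 3 control peaks of 1804 bp in all (strongest fold 15.5, percentile 44.2) and 2 Pax6 KD peaks of 953 bp (13.3, 50.7). No Pol2 peak lay at its promoter, and the only one of its window lay in the downstream flank, 227.7 to 228.7 kb from the start, where lens and Pax6 KD had their strongest H3K4me2 peaks outside promoters (folds 17.1 and 16.7). The strongest control peak outside promoters (fold 14.5), from 146.9 to 148.5 kb within the gene, was in the Pax6 KD list and not in that of lens. Gm10125 starts in the promoter of Zeb1.

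Zeb2 (ENSMUSG00000026872.8, chr2:44839154-44972915, minus strand) had among the strongest αTN4 H3K4me2 at its promoters, with folds of 26.4 in control (percentile 99.2) and 30.8 in Pax6 KD (99.1), against 18.96 in lens (77.3). These peaks lay inside the gene, from 7.84 to 14.4 kb in control, 4.14 to 6.95 kb in Pax6 KD and 7.69 to 10.3 kb in lens. Over the 5′ start, the control peak from −0.642 to 0.19 kb had a fold of 14.0 (77.4). The lens peak there, from −1.52 to 7.54 kb, had a fold of 17.0 (73.9). The regions at its 3 annotated starts added up to 14154 bp in control, 14166 bp in Pax6 KD and 11880 bp in lens. H3K4me3 had folds of 19.6 in control (56.3) and 12.8 in Pax6 KD (48.3), and 9 Pol2 peaks were found there, the strongest of fold 15.4 (72.3). In H3K4me2, lens and αTN4 cells differed beyond the first 14.4 kb. Of 21 lens peaks in the Zeb2 window 14 overlapped no control peak, and most of these lay within the gene. The control list instead had 7 peaks from 134.7 to 165.0 kb, past the 3′ end, with a strongest fold of 11.6, of which 1 overlapped a lens peak. Outside promoters, the Zeb2 gene body also held 8 control H3K4me1 islands of 29200 bp in all and 5 Pax6 KD islands of 22000 bp.

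**Figure D3:**
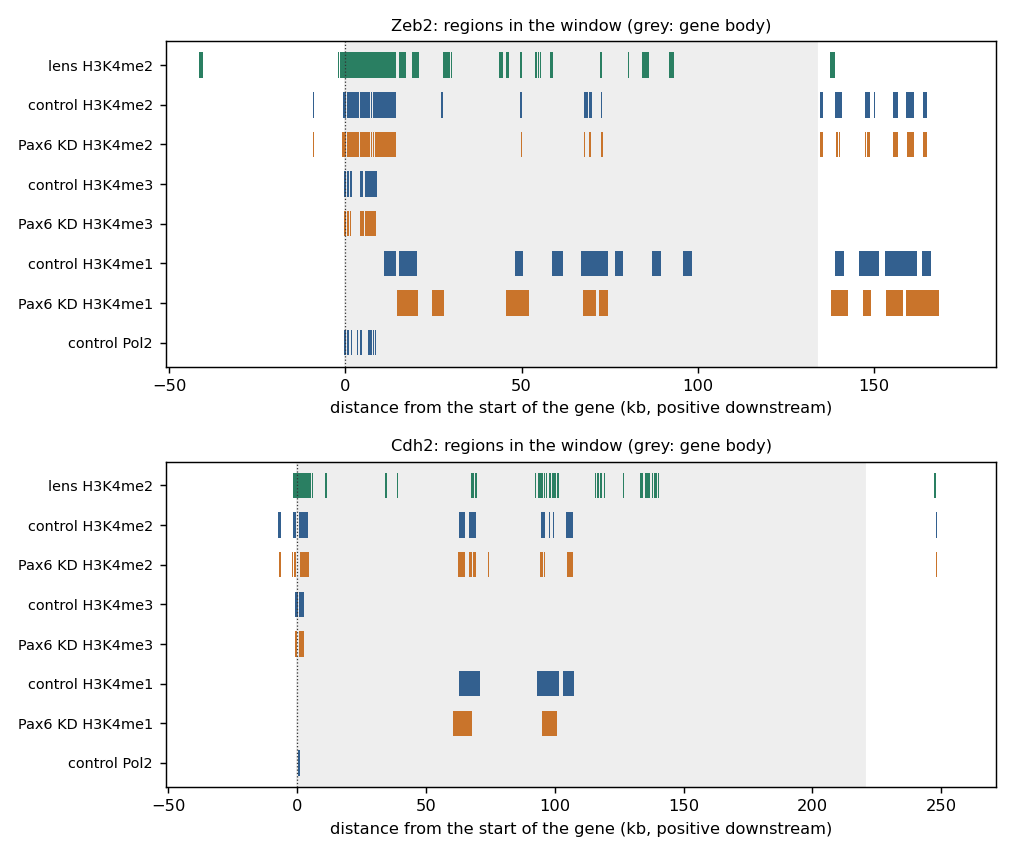
Regions of 8 lists in the windows of Zeb2 (top) and Cdh2 (bottom) by distance from the start of the gene in kb, with the gene body in grey, lens in green, control in blue and Pax6 KD in orange. In both genes lens H3K4me2 peaks are spread through the gene body where the αTN4 H3K4me2 lists have fewer. H3K4me1 islands of αTN4 cells also lie there, and at Zeb2 αTN4 regions and a lens peak lie past the 3′ end.

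Twist1 (ENSMUSG00000035799.5, chr12:34642536-34644682, plus strand) had promoter H3K4me2 of fold 14.5 in lens (percentile 69.8), 12.9 in control (74.1) and 13.2 in Pax6 KD (72.6). H3K4me3 had folds of 13.2 in control (37.6) and 13.5 in Pax6 KD (51.9). The Twist1 window had no Pol2 peak and no H3K4me1 island in any list, although 3 of its 4 lens H3K4me2 peaks overlapped control peaks. The strongest H3K4me2 peak outside promoters, from 8.72 to 10.9 kb, had folds of 14.6 in control, 13.9 in Pax6 KD and 9.62 in lens. It was the gene of the 10 that differed least between lens and αTN4 cells in the length under H3K4me2, 5.89 kb in lens and 5.13 kb in control.

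Among the cytoskeletal and matrix genes, Vim and Fn1 carried the strongest promoter Pol2 of the 10. Vim (ENSMUSG00000026728.3, chr2:13495554-13504453, plus strand), which encodes the intermediate filament vimentin, had a Pol2 peak of fold 38.5 (percentile 98.4) over 5328 bp. Further Pol2 peaks followed through the gene and past its 3′ end to 10.9 kb. H3K4me3 had folds of 36.7 in control (92.4) and 28.8 in Pax6 KD (96.7), and H3K4me2 folds of 22.1 in lens (83.5), 16.8 in control (85.1) and 29.9 in Pax6 KD (98.9). The H3K4me2 peak ran over 5520 bp in lens, 7764 bp in control and 7514 bp in Pax6 KD.

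All 4 lens H3K4me2 peaks of the Vim window overlapped control peaks, while 11 of 14 control peaks overlapped no lens peak. The αTN4 peaks covered 21.5 kb in control and 19.3 kb in Pax6 KD, and lens peaks 8.01 kb, and by share covered the window stood at the 95.4 percentile in control and the 73.5 percentile in lens. H3K4me1 islands covered 44.7% of the window in control (percentile 97.8) and 34.2% in Pax6 KD (97.0). Pol2 peaks covered 9.78% of it (98.1). Outside promoters, the strongest H3K4me2 peak had a fold of 7.31 in control, from −50.9 to −49.4 kb, 8.45 in Pax6 KD and 4.21 in lens. The upstream flank holds the promoters of Trdmt1 and Gm9875, and a region counted there may belong to them.

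Fn1 (ENSMUSG00000026193.8, chr1:71632094-71699774, minus strand), which encodes fibronectin, had Pol2 of fold 36.4 (percentile 98.1) at its promoter. H3K4me2 had folds of 28.2 in lens (95.04), 16.0 in control (83.0) and 23.6 in Pax6 KD (94.1), and H3K4me3 folds of 15.1 in control (43.1) and 14.3 in Pax6 KD (55.5). Its Pol2 thus stood near the top of its list with H3K4me3 in the lower part of its own. Outside promoters of any gene, the strongest peak had a fold of 5.77 in control, from −39.0 to −38.1 kb, 5.21 in Pax6 KD and 5.06 in lens. Apol7d starts in the same promoter, and Atic lies in the flank with H3K4me2 peaks at its own promoter of folds up to 28.4 in lens, 18.6 in control and 24.8 in Pax6 KD.

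Acta2 (ENSMUSG00000035783.8, chr19:34315580-34329826, minus strand), which encodes smooth muscle α-actin, the marker of myofibroblasts, differed most between lens and αTN4 promoters among the genes marked in both. Its lens H3K4me2 peak was 313 bp wide with a fold of 5.003 (percentile 34.9). The control peak was 4265 bp wide with a fold of 17.7 (87.1) and the Pax6 KD peak 4318 bp with a fold of 24.3 (94.98). Pol2 had a fold of 14.6 (69.4), while H3K4me3 was narrow and low, with folds of 7.78 in control (18.4) and 9.84 in Pax6 KD (34.6). Over the window, control peaks covered 16.6 kb, Pax6 KD peaks 16.2 kb and lens peaks 4.20 kb, and all 12 control peaks had a Pax6 KD peak. Outside promoters, the strongest peak had a fold of 7.78 in control, from −7.83 to −6.65 kb, where lens had none, and 10.1 in Pax6 KD. Fas and Stambpl1 lie in the flanks and hold the other H3K4me3 peaks.

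Over all 10 windows, 45 of 89 lens H3K4me2 peaks overlapped a control peak (50.6%, interval 40.4 to 60.7), against 45.4% of all lens peaks. In the other direction 47 of 110 control peaks overlapped a lens peak (42.7%, 33.9 to 52.1), against 41.3% of all control peaks, so both shares were close to those of all peaks. Place made the larger difference. Within 2 kb of a start of any protein-coding gene, 29 of 29 control peaks overlapped a lens peak (88.8% of all such peaks), and away from starts 18 of 81 did (22.2%, 14.5 to 32.4, 19.4% of all such peaks). Away from starts, 22 of 59 lens peaks overlapped control peaks (37.3%, 26.1 to 50.05, 27.4% of all such peaks).

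The shared lens peaks were unevenly spread over the genes. At Vim and Acta2 all 4 lens peaks overlapped control peaks, and at Snai1 8 of 10 did, whereas at Zeb2 7 of 21 and at Cdh2 8 of 29 did. Within gene bodies and promoters of the 10 genes, without flanks, 40.0% of lens peaks and 60.5% of control peaks were shared. This setting was chosen after seeing the data, and the like share over the gene bodies of all genes is not given here. Over all peaks in any place, 45.4% of lens and 41.3% of control peaks were shared. Of the 89 lens peaks 41 lay within the gene body and 18 in flanks outside promoters, and of the 110 control peaks 25 and 56 did. Of those 41 lens peaks, 23 lay at Cdh2 and 16 at Zeb2.

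**Figure D4:**
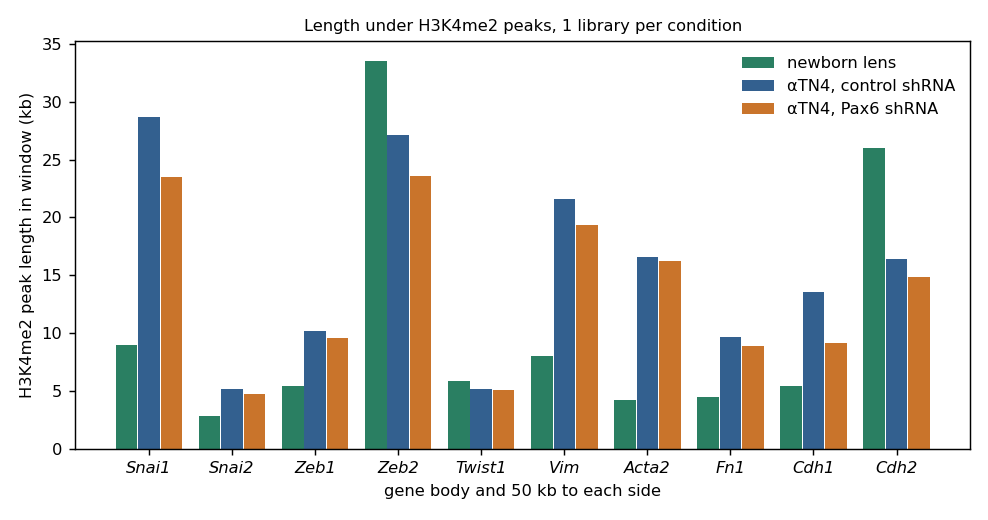
Length in kb under H3K4me2 peaks in the window of each gene, for newborn lens, control αTN4 cells and Pax6 KD αTN4 cells, 1 library each. Control bars exceed lens bars at 7 genes, by the most kb at Snai1 and Vim and by the largest ratio at Acta2, and fall below them at Zeb2, Twist1 and Cdh2.

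More of the window lay under H3K4me2 in control cells than in lens at 7 of the 10 genes, and this was so for 55.4% of all gene windows. The ratio of control to lens length was 3.94 at Acta2, 3.20 at Snai1, 2.69 at Vim, 2.51 at Cdh1 and 2.17 at Fn1, and 0.872 at Twist1, 0.808 at Zeb2 and 0.632 at Cdh2. Its median over the 10 genes was 2.03, against 1.14 over all genes. Length under peaks moves with how many peaks a list holds, and the control list is the larger, with 66274 peaks over 74.3 Mb against 56214 peaks over 58.9 Mb in lens. The count was also 7 of 10 when each list was limited to its 56214 strongest peaks.

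After Pax6 knockdown no promoter of the 10 genes gained or lost H3K4me2 or H3K4me3. Over all genes, 12661 had promoter H3K4me2 in both groups, of 13008 with it in control and 12761 in Pax6 KD cells. For H3K4me3, 10619 had it in both, of 10968 in control and 10672 in Pax6 KD cells. Of 24 control H3K4me3 peaks in the windows 23 were kept, meaning that they overlapped a Pax6 KD peak (95.8%, 79.8 to 99.3), against 89.9% of all control peaks. The exception was a peak of fold 9.06 at Zeb1, from 0.2 to 0.492 kb, and both other H3K4me3 peaks of Zeb1 were kept. Of 110 control H3K4me2 peaks 90 were kept (81.8%, 73.6 to 87.9), against 82.5% of all. Those not kept were weak, with folds from 2.78 to 5.87. In the other direction, 105 of 110 Pax6 KD H3K4me2 peaks overlapped a control peak (95.5%), against 92.7% of all Pax6 KD peaks. All 23 Pax6 KD H3K4me3 peaks did so, against 97.3% of all.

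The ranks of promoter peaks moved both ways. The strongest H3K4me2 peak ranked higher in Pax6 KD cells at 5 of 9 genes, against 42.2% of all genes with one in both, and the strongest H3K4me3 peak at 6 of 8, against 41.4%. The median change was 4.04 percentile points for H3K4me2, from −11.5 at Zeb1 to 13.7 at Vim, and 5.40 for H3K4me3, from −11.8 at Snai2 to 16.3 at Acta2. Over all genes 90% of changes lay between −14.9 and 13.7 for H3K4me2 (median −0.99) and between −20.1 and 16.4 for H3K4me3 (median −1.68), so that 1 gene of the 10, Vim, passed the upper limit for H3K4me2 and none passed those for H3K4me3. The direction was the same for both marks at Vim, Acta2, Fn1 and Cdh2, where both ranked higher. At Zeb2 both ranked lower, but H3K4me2 by only −0.098 points and between peaks at different places. The strongest Zeb2 H3K4me2 peak lay from 7.84 to 14.4 kb in control and from 4.14 to 6.95 kb in Pax6 KD cells. At the latter place the control peak had percentile 98.7, against 99.1 in Pax6 KD cells. At Snai2, Zeb1 and Twist1 the marks moved in opposite directions.

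H3K4me1 had the smallest share of regions kept of the 3 marks, at these genes and over the genome. Of 56 control islands in the windows 31 overlapped a Pax6 KD island (55.4%, 42.4 to 67.6), against 46.2% of all control islands. Of 32 Pax6 KD islands 30 overlapped a control island, against 93.1% of all Pax6 KD islands. Promoter H3K4me1 was listed in control and not in Pax6 KD cells at Snai2 and Acta2, and in both at Snai1, Vim and Fn1. By gene, 7 of 8 islands were kept at Snai1, 6 of 8 at Vim, 7 of 12 at Zeb2, 2 of 5 at Zeb1 and at Acta2, and 3 of 10 at Cdh1. The Cdh1 islands that were kept lay from −27.3 to −24.1 kb, upstream, and in the gene from 4.95 to 12.7 and from 15.0 to 21.7 kb.

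The share of islands kept differed between chromosomes, from 14.5% on X to 61.5% on chromosome 15, and the islands of the 10 genes are not spread evenly: 28 of 56 lie on chromosome 2, with Snai1, Zeb2 and Vim. On chromosome 2, 57.5% of all islands and 20 of the 28 were kept. On chromosome 8, which holds Cdh1, it was 31.1% of all islands, and on chromosome 18, which holds Zeb1 and Cdh2, 23.3%. Weighted by the chromosomes of the 10 genes, the share over all islands was 45.7%, and without the genes on chromosome 2 the share at the others fell to 39.3%. The median input reads per kb of control islands also differed, from 7.92 on chromosome 12 to 15.6 on chromosome 3, with 15.0 on chromosome 2, 10.3 on chromosome 8 and 8.25 on chromosome 18. Their part in the result was not tested.

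The reads in the 31 islands that were kept changed little relative to other kept islands. The log2 ratio of Pax6 KD to control ChIP reads per kb, set to 0 at the median of all 17559 kept islands (−0.31 before), had a median of −0.02 at the 10 genes, with quartiles of −0.16 and 0.23, against quartiles of −0.22 and 0.23 over all. The Cdh1 islands had the lowest median, −0.45 over 3 islands that ranged from −0.61 to −0.13. With 1 library each and few islands a gene, these values are descriptions.

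The length under H3K4me1 islands was smaller in Pax6 KD than in control cells at 8 of the 9 genes with an island, as in 89.8% of all windows with one. Fn1 was the exception, with 17.6 kb in control and 20.8 kb in Pax6 KD cells. The length under H3K4me2 was smaller at 10 of 10 genes, as in 89.4% of all windows, and that under H3K4me3 at 6 of 10, as in 74.7%. The median ratios of Pax6 KD to control length were 0.619 for H3K4me1, 0.912 for H3K4me2 and 0.984 for H3K4me3, against 0.477, 0.881 and 0.931 over all genes. For H3K4me2 the lowest ratio was that of Cdh1, 0.674, from 13.5 kb in control to 9.11 kb in Pax6 KD cells. The Pax6 KD lists cover less of the genome, with 63.6 Mb of H3K4me2 against 74.3 Mb and 97.2 Mb of H3K4me1 against 149.2 Mb.

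None of the 10 windows held a Pax6 peak of control αTN4 cells, while 3.48% of all gene windows did. The nearest lay 157 kb from the Snai1 gene and 188 kb from Vim, followed by 291 kb for Fn1, 737 kb for Twist1 and 933 kb for Zeb2, with the other 5 genes from 4418 kb (Acta2) to 42973 kb (Snai2) away. Each distance runs from the peak to the nearest end of the gene. Marks on Pax6 itself were present in both groups. Promoter H3K4me2 had a fold of 25.1 in control (percentile 98.7) and 20.9 in Pax6 KD (90.3). H3K4me3 had a fold of 21.0 in control (60.2) and 27.3 in Pax6 KD (95.1). These lists do not measure how far Pax6 was reduced.

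Other genes of both states were counted from lists of junction, keratin and regulator genes (epithelial, 52 genes) and of regulator, cytoskeletal and matrix genes (mesenchymal, 61 genes), none of them among the 10. Lens H3K4me2 was present at a similar share of both, 44 of 52 epithelial (84.6%) and 51 of 61 mesenchymal promoters (83.6%), against 66.8% of all genes. In control αTN4 cells H3K4me2 was present at 29 epithelial (55.8%) and 47 mesenchymal promoters (77.0%), against 58.2% of all genes. H3K4me3 was present at 19 (36.5%) and 37 (60.7%), against 49.1%, and Pol2 at 19 (36.5%) and 42 (68.9%), against 48.0%. The epithelial share was thus close to that of all genes for H3K4me2 and below it for H3K4me3 and Pol2. Control H3K4me1 was at a similar share of both sets, 32 epithelial (61.5%) and 36 mesenchymal promoters (59.0%), against 36.0% of all genes. In Pax6 KD cells H3K4me2 was present at 28 (53.8%) and 47 (77.0%), against 57.1%, H3K4me3 at 19 (36.5%) and 36 (59.0%), against 47.8%, and H3K4me1 at 16 (30.8%) and 26 (42.6%), against 16.8%. Lens H3K4me2 without control H3K4me2, as at Cdh1, was found at 19 of 52 epithelial and 7 of 61 mesenchymal genes, against 11.7% of all genes, a share which the mesenchymal genes did not exceed. The opposite was found at 4 and 3 genes, against 3.13%.

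**Figure D5:**
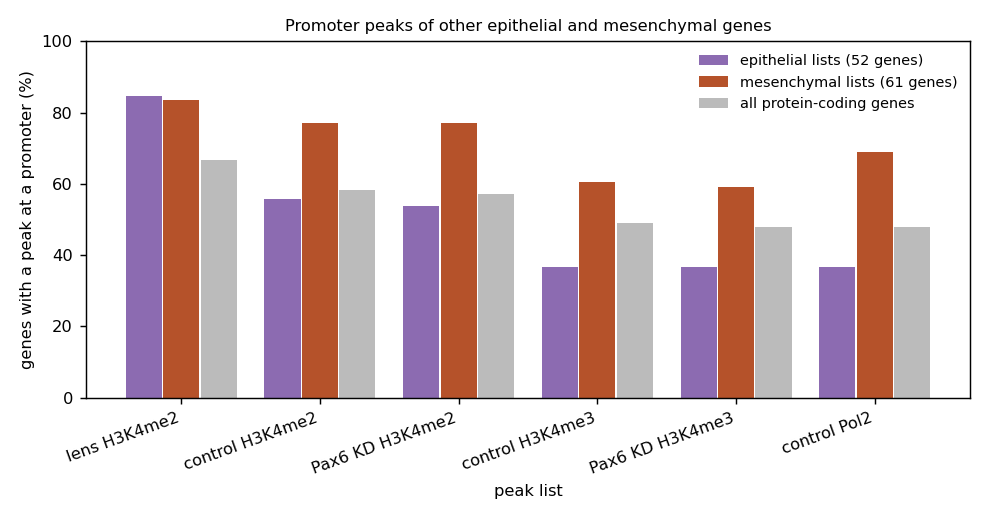
Percent of genes with a promoter peak in 6 lists, for 52 epithelial genes, 61 mesenchymal genes and all protein-coding genes. The epithelial and mesenchymal bars are level in lens, and the epithelial bars are lower than the mesenchymal ones in the 5 αTN4 lists shown, which leave out H3K4me1.

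Among the epithelial genes, the junction and polarity list had lens H3K4me2 without control H3K4me2 at 10 of 31 genes, the strongest of which were the desmosomal cadherins Dsg2 (fold 27.9) and Dsc2 (25.3), and the list also had Ocln, Epcam and the claudins Cldn1, Cldn4 and Cldn7. Of 12 epithelial regulators 6 did so, led by Ovol2 (fold 25.3), a repressor of mesenchymal genes, and Esrp1 (19.7), a splicing factor of epithelial cells, and followed by Ovol1, Grhl3, Grhl2 and Trp63. Of 9 keratin and hemidesmosome genes 3 did so, Itgb4 (fold 15.5), Krt18 (9.48) and Krt15. The opposite was found at Prss8 (control fold 11.6) and Pkp3 (7.59) and at the keratins Krt14 (6.90) and Krt7 (5.07), all of which kept H3K4me2 in Pax6 KD cells. The keratin list had control H3K4me1 at 8 of 9 promoters, H3K4me3 at 1 and Pol2 at none. Of the named epithelial genes with lens and without control H3K4me2, control H3K4me1 was present at Cldn4, Cldn7, Esrp1, Grhl3, Itgb4 and Krt18. It was absent from the promoters of the others named, as at Cdh1.

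Among the mesenchymal genes, 13 of 15 regulators had control H3K4me2 and 11 had H3K4me3 and Pol2. Gsc (lens fold 18.8) was the 1 regulator with lens H3K4me2 alone. Of 16 cytoskeletal genes 11 had control H3K4me2, and Des (lens fold 16.6), Acta1 (9.22) and Tagln had lens H3K4me2 alone, while Mylk (control fold 9.88) had control H3K4me2 alone. Of 30 surface and matrix genes 23 had control H3K4me2 and 20 had Pol2. Mmp2 (lens fold 15.3), Thy1 (14.5) and Lox had the lens mark alone, and Spp1 (control fold 15.4), which encodes osteopontin, and Postn (11.4), which encodes periostin, the control mark alone. Itgb3 had H3K4me3 in control cells (fold 7.17) and not in Pax6 KD cells, the 1 such gene of the 113.

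Both samples were checked for markers of the cells they could hold, beside the 66.8% of all genes with lens H3K4me2 and the 58.2% with control H3K4me2. Of 9 lens genes, all had lens H3K4me2 and 8 had it in control cells, Foxe3 (lens fold 12.6) being the exception. Of 8 fibre genes 6 had lens H3K4me2 (folds 6.06 to 14.7), and 2 had it in control cells. Lens H3K4me2 was also found at 4 of 7 endothelial promoters, Kdr (fold 23.4), Esam (18.7), Cdh5 (7.59) and Tek (6.58), with none at Pecam1, Tie1 and Emcn, at 4 of 8 retinal promoters (folds 7.64 to 28.8), at 6 of 8 promoters of fibroblasts and periocular mesenchyme, and at 0 of 6 macrophage and 0 of 5 corneal promoters. Of the mesenchymal set, lens H3K4me2 had folds from 7.90 at Dcn to 26.1 at Pdgfra, and Col3a1 and Lum had none. The endothelial (57.1%) and retinal (50%) shares were below that of all genes, and that of fibroblasts and mesenchyme (75%) was near it. A peak list of whole tissue does not say whether a mark lies in many cells or in a few, and the part of other cells in the lens marks of the mesenchymal genes was not tested.

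In control αTN4 cells 7 of the 8 fibroblast and mesenchyme promoters had H3K4me2, 4 had H3K4me3 and 5 had Pol2, while the lens genes Pax6, Six3, Prox1, Maf, Hsf4, Cryaa and Cryab had H3K4me2, H3K4me3 and Pol2. Marks at lens genes and at mesenchymal genes were thus listed in the same population of cells. Of the 8 fibroblast and mesenchyme genes, Foxc1, Pdgfra, Dcn and Lum also stand in the mesenchymal lists. Control H3K4me2 was also found at 2 of 7 endothelial (28.6%), 1 of 6 macrophage (16.7%), 2 of 5 corneal (40%) and 1 of 8 retinal promoters (12.5%). These shares were below the 58.2% of all genes. Control Pol2 was at 0, 1, 1 and 1 of these promoters in the same order, and control H3K4me3 at 0, 0, 0 and 1.

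The 250 bases before the start were rich in GC at most of the 10 genes, from 46.0% at Snai2 to 79.6% at Cdh2. Their median was 61.6% against 54.0% over all genes, and the median ratio of observed to expected CpG was 0.616 against 0.496. Acta2, with the narrow H3K4me3, had the lowest ratio of CpG, 0.330, and Fn1 the highest, 0.924. Cdh1, with 60.8% GC and a ratio of 0.566, lay between them.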

How the data were processed

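ChIP-seq region lists of control αTN4 cells, Pax6 KD αTN4 cells and newborn lens were analysed, 1 list per library. RNA-seq and input libraries were left out. Per the methods of the study, the authors mapped reads on mm9 (Bowtie) and made peaks for Pax6, Pol2, H3K4me2 and H3K4me3 in MACS2 at default settings and islands of H3K4me1 with SICER (window 200 bp, gap 600 bp, FDR 0.001 per the file headers and names), and removed blacklisted regions. Tools and build also stand in the submitters' processing notes. Versions of these tools are not given in the sources used here.

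The deposited MACS2 lists give the fold enrichment of each peak as a ratio over local background, the −log10 of its p and q, and a display score that was not used. The deposited SICER lists give the count of ChIP reads and of control reads per island, a fold as a ratio over the control, and a p-value and FDR. The control library is not named there, and its reads are called input reads. The names of control H3K4me2 peaks hint at pooled replicates, which the text of the study does not state. Depth is unknown for the MACS2 lists. Folds were compared only within a list, as the percentile of a region.

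Genes, transcripts and starts were the protein-coding ones of GENCODE vM1 on mm9 (22342 genes, 45993 starts, chromosomes 1 to 19 and X). Regions were assigned to the gene body with 50 kb to each side, and to a promoter when within 2 kb of a start. Overlap needed 1 bp. Kept regions are control regions that share a base with a region of that mark in Pax6 KD cells. Percentiles of covered length were taken among the windows of all genes. Sequences were read from the mm9 genome. No test was made, since each condition has 1 library, and intervals are 95% Wilson intervals. Counting of overlaps and of covered length was tested on simulated regions.

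All 10 genes were named, with the strongest peak outside the promoter of each, and from each list up to 2 genes with promoter H3K4me2 in lens or control alone, by fold, and those with H3K4me3 in 1 αTN4 group alone. Other genes named were chosen after their values were seen. The 10 genes and all lists were chosen with earlier results of these data known. Of the listed markers, Sox1 and Krt3 had no entry under these symbols in the annotation set. A few marker genes are not reported here by name. Alternatives covered the flank, the promoter, the overlap, thresholds and equal numbers of peaks. Python 3.11.15, NumPy 2.4.6, pandas 2.3.3 and matplotlib 3.10.9 were used.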

Additional observations from a re-analysis of the deposited data

How the results depend on the processing

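The counts of promoters with each mark, of lens and control peaks shared, of regions kept after Pax6 knockdown and of covered length were recomputed with flanks of 20 and 100 kb, promoters of 1 and 5 kb, the 5′ end of the gene alone, an overlap of 50% of the shorter region, stricter thresholds (−log10 q of 5, FDR of 1e-06), without regions at promoters of other genes, and with equal numbers of peaks. Within 5 kb of a start, 8 genes had control H3K4me1 in place of 5, with Zeb1, Zeb2 and Cdh1 added, and Cdh1 gained Pax6 KD H3K4me1. Under the stricter threshold Vim lost Pax6 KD H3K4me1. Without regions at promoters of other genes, 100% of control H3K4me3 peaks were kept, since the lost peak at Zeb1 also lies at Gm10125. Settings chosen after seeing the data gave 40.0% of lens peaks and 60.5% of control peaks shared within gene bodies and 2 kb upstream, 60.7% of lens peaks shared without the genes on chromosome 18, 39.3% of control H3K4me1 islands kept without those on chromosome 2, and 100% of H3K4me3 peaks kept without those on chromosome 18, where Zeb1 lies. The cause was not tested where none is named. The other 100 values of these results moved by less than their interval or by less than 1.5 times, and so did 355 values of single genes, with the 5 exceptions named above. No paired analysis was possible because each condition has 1 library.

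With 1 library per condition, nothing separates a difference between conditions from one between libraries, and the chromatin marks are not expression.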
